A study of Homo sapiens with 4 samples.

Results

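The major histocompatibility complex class II genes of the host were read in mouse cells of human tumour xenografts. The set had 8 genes, chosen by name with earlier results of these data known, out of 32285 mouse genes in the reference. Each of the 8 had 1 row in both pools. H2-Aa (ENSMUSG00000036594), H2-Ab1 (ENSMUSG00000073421) and H2-Eb1 (ENSMUSG00000060586) encode chains of the peptide-presenting molecules I-A and I-E. Cd74 (ENSMUSG00000024610) encodes the invariant chain, which blocks the peptide groove and steers new class II molecules to endosomes. H2-DMa (ENSMUSG00000037649), H2-DMb1 (ENSMUSG00000079547) and H2-DMb2 (ENSMUSG00000037548) encode chains of H2-M, which exchanges the invariant chain remnant for antigen peptides. Ciita (ENSMUSG00000022504) encodes the transactivator without which class II promoters stay largely silent.

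MHC class II molecules present peptides of ingested proteins to CD4+ T cells. Dendritic cells, B cells and some macrophages carry them at rest, monocytes acquire them as they mature in tissue, and interferon-gamma induces them in many other cells through CIITA. Neutrophils at rest are known for having little or none.

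MCF10DCIS.com, a human breast line that forms lesions like ductal carcinoma in situ, was seeded on decellularised mammary matrix of young (2 to 3 months) or aged (18 months or more) mice and cultured for 12 days. Seeded matrix was implanted into mammary fat pads of Rag1-/- mice, the 2 kinds of matrix on opposite sides of an animal per the design text, and tumour with adjacent stroma was collected 4 weeks later. Rag1-/- hosts lack mature T and B cells, so the usual T cell partners of class II and 1 of its usual carriers should be missing in both groups. Each matrix age had 1 library pool of dissociated cells after dead cell removal, and the design text counts 3 samples sent to sequencing without tying them to pools or animals. The matrix differed in age, while the age of the recipients was not given in the sources used here. Both pools held cell hashing tags, with 4396408 and 4462828 counts in mouse cells. The labels do not tie these tags to animals, so cells were not split by them. With 1 library for each matrix age, matrix age and library cannot be told apart. No test across samples was made, and every interval below (95%, exact) covers counting error only.

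The young pool held 11946 mouse cells and the aged pool 12924, with 65136469 and 71000331 mouse UMIs and medians of 2285.5 and 2261 UMIs per cell. Of all barcodes, 190 occurred in both pools, 143 of them among the mouse cells. The cells were divided into 36 clusters without use of the 8 genes or of other antigen presentation genes, so that no class II level defined a cluster, and names with "-like" rest on marker genes. Without the shared barcodes the aged over young ratios of the 4 main class II genes, given below, were 1.40 in macrophage-, 1.48 in monocyte-, 1.004 in cDC2- and 1.32 in neutrophil-like cells. Neutrophil-like cells made up 79.9% of the young and 76.5% of the aged mouse cells. The B cell list of 7 markers summed to 14.2 and 15.1 CPM (UMIs scaled to 1000000 in all) over all mouse cells, and 1 young and 0 aged cells had 3 of the markers. The T cell list of 7 markers summed to 20.5 and 35.1 CPM, with 3 markers in 4 cells of each pool. No cluster was named as conventional dendritic cells of the cDC1 kind or as mature dendritic cells, although the markers of both lists were detected.

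Class II RNA lay almost wholly in mononuclear phagocytes, that is macrophage-, monocyte- and dendritic-like clusters and the unnamed clusters grouped with them. These cells were 9.92% of the young and 10.3% of the aged mouse cells, and held 95.9% and 94.2% of the UMIs of H2-Aa, H2-Ab1, H2-Eb1 and Cd74 summed, called the 4 summed genes below. Neutrophil-like cells, most of the host cells, held 1.73% and 1.67%. The smallest share of cells with a large share of the RNA was that of cDC2-like cells, a conventional dendritic type led by Cd209a, Cd7, Dpp4, Kit and Flt3, with 0.435% and 0.426% of the cells and 14.7% and 11.7% of the UMIs. UMIs here count transcript 3′ ends and were not divided by length, so levels are compared between clusters for each gene and not between genes.

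Levels of the 4 summed genes ranged over more than 2 orders of magnitude on the CPM scale. The cDC2-like cells were highest, with 33040 CPM (32510 to 33570) in 52 young cells and 33070 CPM (32560 to 33580) in 55 aged cells. An unnamed cluster led by Il1r2, Ifitm1, Pxdc1, Grasp and Gpr183 followed with 25090 and 24830 CPM. Monocyte-like cells led by Spon1, Cfb, Klf4, Irf7 and Ccr2 had 16600 and 23100 CPM, and macrophage-like cells led by Ccl8, Hspa1b, Hspa1a, Ccl12 and Maf had 18200 and 19540 CPM. The last 2 changed places between the pools. The small macrophage-like cluster led by Retnla, of 16 and 18 cells, had 13720 and 23970 CPM and so lay below both in 1 pool and above both in the other.

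Below these lay a broad middle group. Monocyte-like cells led by the interferon-stimulated gene Rsad2 had 13650 CPM in both pools. An unnamed cluster led by Adgre4, Ace and Treml4, genes of nonclassical monocytes, had 11130 and 15040 CPM. Macrophage-like cells led by Fcrls had 9568 and 11220 CPM, and cycling macrophage-like cells led by Hist1h1b and Top2a had 6965 and 5123 CPM. An unnamed cluster led by Inhba, Cxcl3, Nos2 and Arg1 had 6427 and 7935 CPM, so its order against the cycling cells differed between pools. The plasmacytoid dendritic-like cells, led by Klk1, Siglech and Ccr9, had 5686 and 5184 CPM, well under the cDC2-like cells. A further unnamed cluster led by G0s2 and S100a9 had 14140 and 13840 CPM. It carried neutrophil markers at 32660 and 27850 CPM beside macrophage markers at 22880 and 20520 CPM, and whether it held mixed droplets was not tested.

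Macrophage- and monocyte-like cells were thus not uniform. Macrophage-like cells led by Gpnmb, Fabp5, Mmp12, Mmp13 and Ada had 1400 and 1031 CPM of the 4 summed genes, and monocyte-like cells led by Hp, Chil3, Ifitm6, Prtn3 and Mgst1 had 838.7 and 816.6 CPM. Monocyte-like cells led by Slpi, Dmkn and Vcan lay between, at 2898 and 3150 CPM. The unnamed cluster led by Ctsk, Mmp9, Slc9b2 and Acp5, genes known from osteoclasts, had 696.7 and 452.7 CPM. In both pools each of these 4 clusters was below every other phagocyte cluster. The mouse UMIs found in human barcodes, which mix free RNA and mixed droplets, held 1412 and 1561 CPM of the same genes, above the Hp- and Ctsk-led clusters in both pools and beside the 1400 CPM of young Gpnmb-led cells. Counted per barcode the order was different, since human barcodes held few mouse UMIs: they had 0.975 and 1.03 UMIs of the 4 summed genes, Hp-led cells 7.36 and 6.68, the Ctsk-led cluster 18.5 and 12.5 and Gpnmb-led cells 26.6 and 19.4.

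**Figure D1:**
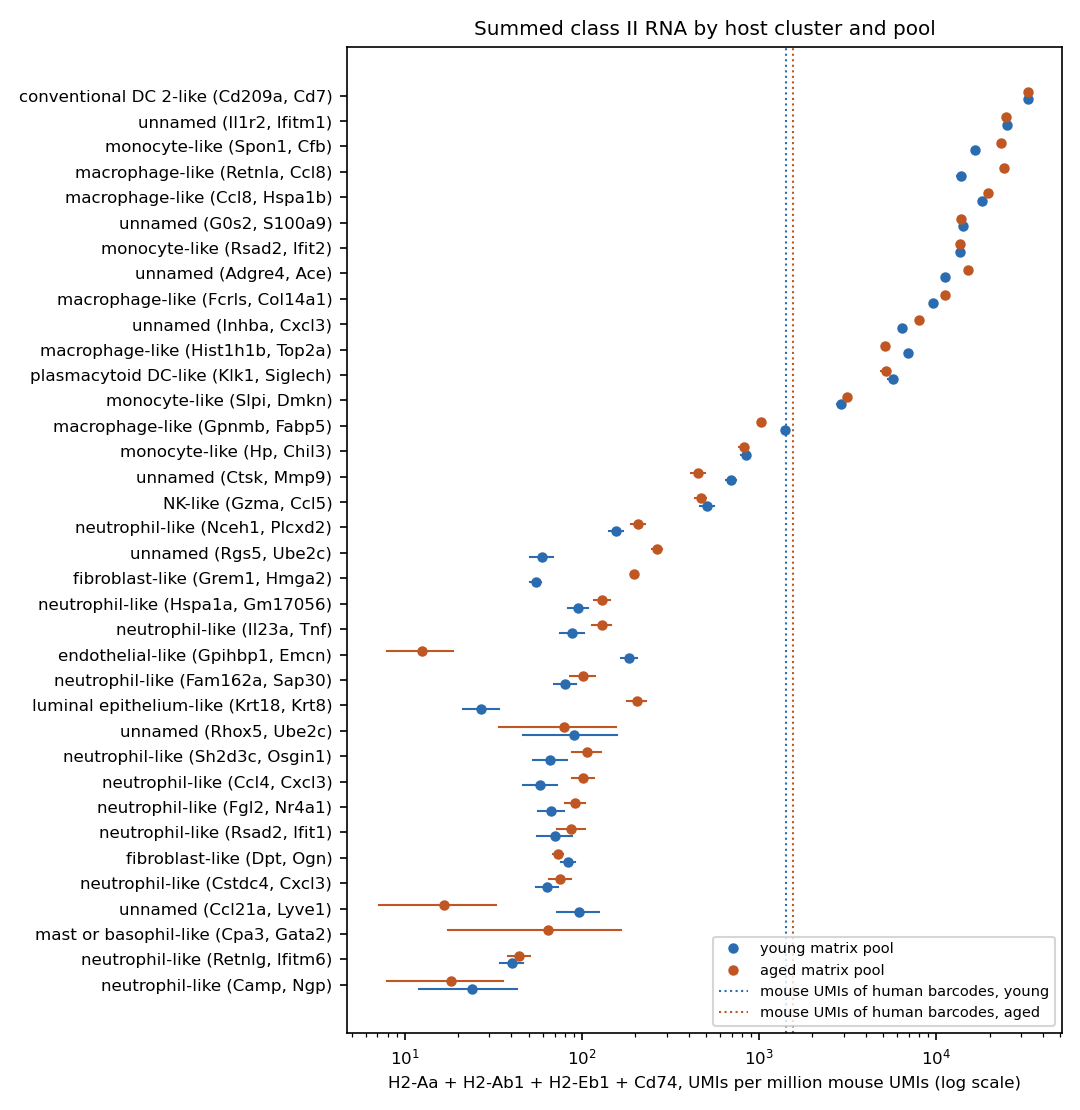
Summed H2-Aa, H2-Ab1, H2-Eb1 and Cd74 in CPM of mouse UMIs (log axis) for each of the 36 host clusters, with points for the young and aged matrix pools, lines for exact 95% Poisson intervals and dotted lines for the mouse UMIs of human barcodes (1412 and 1561). The cDC2-like cluster is at the top in both pools. The neutrophil-like clusters lie below every phagocyte cluster, with the Nceh1-led cells nearest to the Ctsk-led cluster. The mast or basophil-like cluster had 0 UMIs in the young pool and only its aged value is drawn.

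For each of the 3 chains of the presenting molecules the cDC2-like cells were highest and the Ctsk-led cluster lowest among phagocyte clusters in both pools, with some neighbours between them in another order than for the sum. In cDC2-like cells H2-Aa had 6657 and 6847 CPM, H2-Ab1 6566 and 6353 CPM, and H2-Eb1 4774 and 4950 CPM in the young and aged pools. The Il1r2-led cluster came next for H2-Aa with 5121 and 5076 CPM, although the aged Spon1-led monocyte-like cells, at 5016 CPM, were close to it. At the low end among phagocytes, H2-Aa had 200.5 and 136.0 CPM in Gpnmb-led macrophage-like cells and 187.3 and 180.2 CPM in Hp-led monocyte-like cells. H2-Eb1 had 144.8 and 77.6 CPM in the former and 67.9 and 57.3 CPM in the latter.

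Cd74, the invariant chain gene, had 15040 and 14920 CPM in cDC2-like cells and 11370 and 11070 CPM in the Il1r2-led cluster. Ccl8-led macrophage-like cells had 8353 and 8727 CPM, Fcrls-led ones 4652 and 5456 CPM, and Gpnmb-led ones 749.7 and 594.2 CPM. Across these 3 macrophage-like clusters the level was in the same order in both pools, with no overlap of the pools' values. Plasmacytoid dendritic-like cells had 3370 and 2884 CPM of Cd74.

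Of the H2-M chains, H2-DMa had 976.2 and 863.8 CPM in cDC2-like cells, 774.8 and 710.2 CPM in the Il1r2-led cluster and 636.6 and 579.6 CPM in Spon1-led monocyte-like cells. Unlike the presenting chains it was not near its lowest in Hp-led monocyte-like cells: they had 231.4 and 231.9 CPM, from 341 and 336 UMIs. Gpnmb-led macrophage-like cells had 83.6 and 95.0 CPM of it and the Ctsk-led cluster 29.7 and 18.6 CPM. H2-DMb1 had 699.5 and 496.2 CPM and H2-DMb2 257.1 and 230.8 CPM in cDC2-like cells. In Gpnmb-led macrophage-like cells H2-DMb1 was at 4.48 and 3.85 CPM and H2-DMb2 at 8.46 and 8.98 CPM. H2-DMb1 and H2-DMb2 are near-identical copies, and reads that match both could not be assigned to either, so the split between them is uncertain.

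Ciita was sparse everywhere. It reached 152.5 CPM (118.9 to 192.7, 70 UMIs) and 95.98 CPM (70.5 to 127.6, 47 UMIs) in cDC2-like cells, the highest value of any cluster in both pools. In the aged pool its interval overlapped that of Spon1-led monocyte-like cells. Those cells had 44.1 and 77.4 CPM (60.8 to 97.2 in the aged pool), the Il1r2-led cluster 49.0 and 58.9 CPM, Ccl8-led macrophage-like cells 49.5 and 36.6 CPM and Rsad2-led monocyte-like cells 44.8 and 44.4 CPM. The intervals of these last 4 overlapped within the young pool. Hp-led monocyte-like cells had 6.11 and 6.90 CPM, from 9 and 10 UMIs. No Ciita UMI was found in Gpnmb-led macrophage-like cells, which allows at most 1.84 and 2.37 CPM (upper ends of the exact Poisson intervals) on counts alone.

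Class II RNA was uneven within clusters too. Cells were thinned to 2000 UMIs each, leaving out shallower cells, so that depth did not set the spread. A cDC2-like cell then held a median of 63 UMIs of the 4 summed genes, with 67 in the young and 57.5 in the aged pool, and the tenth and ninetieth percentiles were 2.4 and 119. Spon1-led monocyte-like cells had a median of 42, although 14.8% of them had no UMI of these genes. Ccl8-led macrophage-like cells had a median of 28 with 16.1% at 0, and 55.2% of them held 20 or more.

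Fcrls-led macrophage-like cells were split more widely, with a median of 7, 25.6% of cells at 0 and 38.6% at 20 or more. Rsad2-led monocyte-like cells had a median of 14.5, with 21 in the young and 11 in the aged pool, and 25.7% at 0. Plasmacytoid dendritic-like cells showed the reverse pattern, a low median of 9 with 10% at 0 and a ninetieth percentile of 22, so that their low sum came from low levels in most cells. In Gpnmb-led macrophage-like cells 57.0% had none and the median was 0, as it was in Slpi-led monocyte-like cells (55.9% at 0), the Ctsk-led cluster (68.1%) and Hp-led monocyte-like cells (76.1%). Of the 9689 neutrophil-like cells deep enough to thin, 87.8% had no UMI of the 4 genes and none had 20.

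**Figure D2:**
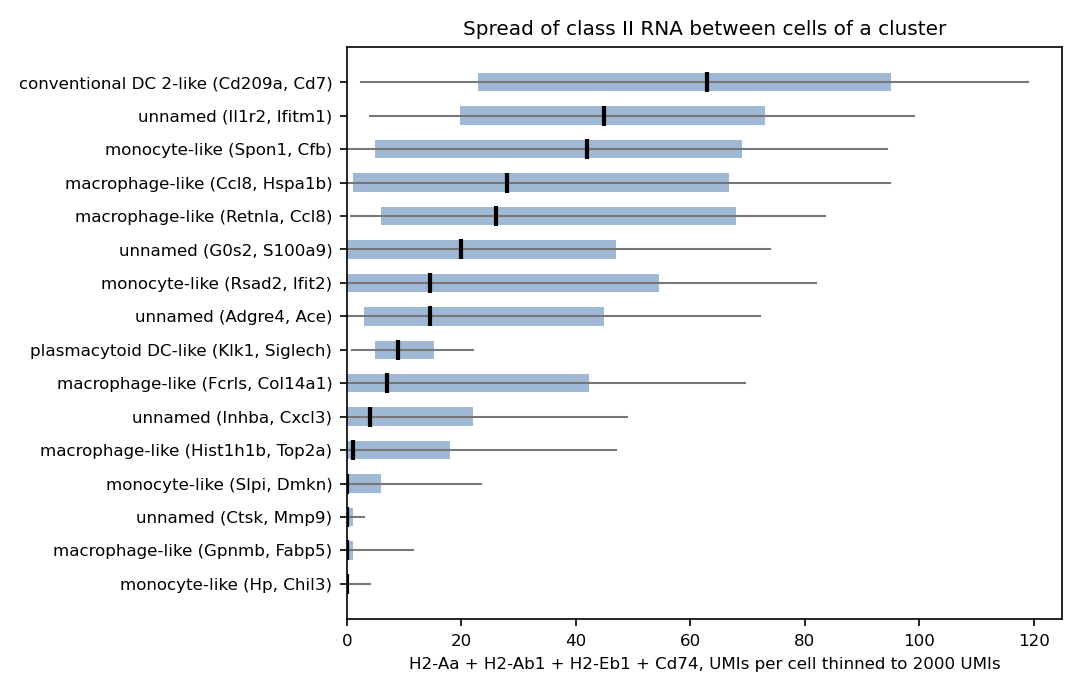
UMIs of H2-Aa, H2-Ab1, H2-Eb1 and Cd74 summed per cell after thinning to 2000 UMIs, both pools together, with a black bar at the median, a box from the lower to the upper quartile and a line from the tenth to the ninetieth percentile. The median falls from 63 in cDC2-like cells to 0 in the 4 lowest clusters, and several macrophage- and monocyte-like clusters reach from 0 to over 60.

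The make-up of the class II RNA was alike in most phagocytes. Over both pools, Cd74 made up 42.9% of the UMIs of the 8 genes in cDC2-like cells, H2-Aa 19.3%, H2-Ab1 18.5%, H2-Eb1 13.9%, H2-DMa 2.63%, H2-DMb1 1.70%, H2-DMb2 0.697% and Ciita 0.353%. Over all phagocytes the shares were 44.5%, 18.9%, 18.4%, 12.6%, 3.32%, 1.58%, 0.439% and 0.241% in the same order. Shares within a cell type depend on how well each 3′ end was captured, so only the differences between clusters are read.

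H2-DMa stood out in Hp-led monocyte-like cells, where it made up 21.3% of the class II UMIs, 21.0% in the young and 21.5% in the aged pool. For every 100 UMIs of the 4 summed genes these cells held 27.99 of H2-DMa, Slpi-led monocyte-like cells 9.61 and Gpnmb-led macrophage-like cells 7.15, against 2.16 to 5.05 in the other phagocyte clusters. A single Hp-led cell held 2.03 and 1.90 H2-DMa UMIs on average, and a human barcode 0.0353 and 0.0320. The Hp-led cells also had the lowest share of H2-Eb1 among those monocyte- and macrophage-like clusters, 5.74%. In the Ctsk-led cluster the share of Cd74 was 66.3% (61.3% and 76.1%), and Cd74 UMIs were 5.11 and 11.1 times those of H2-Aa, against 2.22 times in cDC2-like cells. A single Ctsk-led cell held 41.2% of the young and another 30.2% of the aged UMIs of the 4 summed genes, and without these cells the ratio was 15.4 and 12.9. Plasmacytoid dendritic-like cells and the Inhba-led cluster had Cd74 at 53.5% and 50.9%. Gpnmb-led macrophage-like cells held 50.9% Cd74, 12.9% H2-Aa and no Ciita among 4783 UMIs of the 8 genes, which allows a share of at most 0.0771% (exact binomial).

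**Figure D3:**
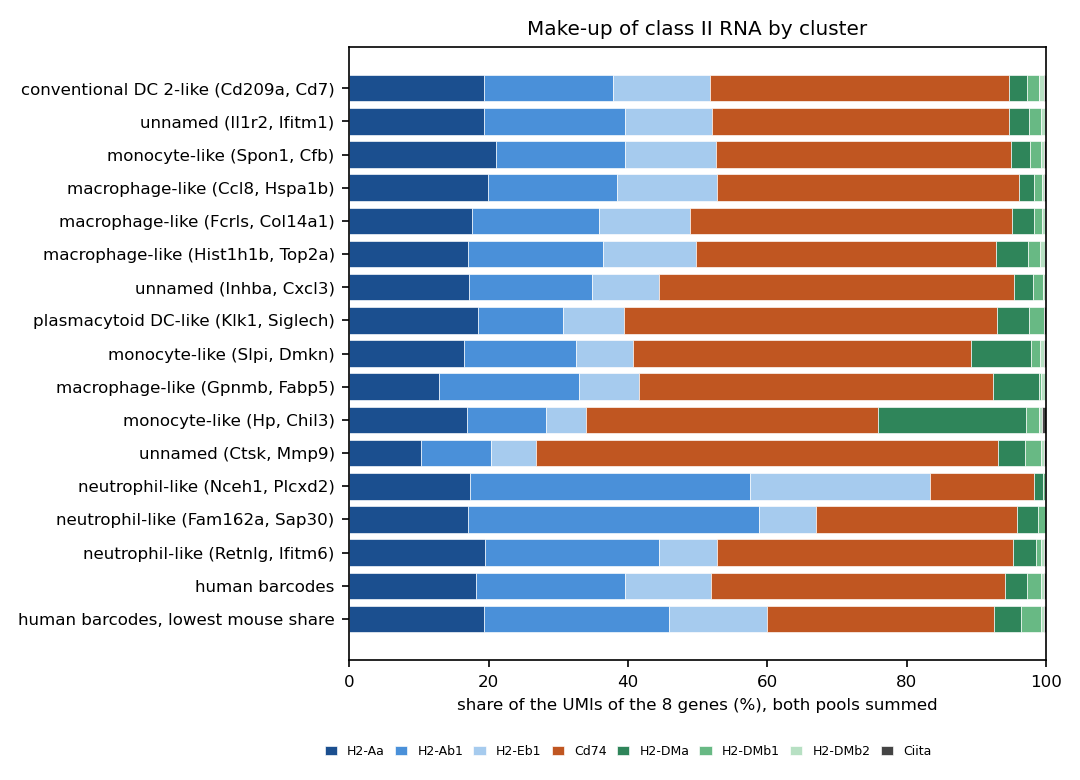
Share of each of the 8 genes in their summed UMIs (%), both pools together, for selected host clusters and for the mouse UMIs of human barcodes. H2-DMa takes 21.3% in Hp-led monocyte-like cells, Cd74 66.3% in the Ctsk-led cluster, and H2-Ab1 40.3% in Nceh1-led neutrophil-like cells.

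Neutrophil-like cells held few class II UMIs, 4091 of the 4 summed genes in 19429 cells. Of these cells 3092 had any, 2539 had exactly 1, and 8 cells with 10 or more held 119. The level was 76.5 CPM in the young and 100.8 CPM in the aged pool, with H2-Aa at 17.8 and 22.8, H2-Ab1 at 23.3 and 30.2, H2-Eb1 at 11.8 and 17.2 and Cd74 at 23.7 and 30.6 CPM. Ciita had 2 and 1 UMIs in all.

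A human tumour cell has no mouse genes, so mouse UMIs in human barcodes give a level that free RNA and undetected mixed droplets can reach. A neutrophil-like cell held on average 0.187 and 0.234 UMIs of the 4 summed genes, and a human barcode 0.975 and 1.03, a ratio of 0.192 (0.180 to 0.204) and 0.227 (0.214 to 0.241). Against the human barcodes with the lowest share of mouse UMIs, which held 0.285 and 0.338, the ratio was 0.656 (0.580 to 0.743) and 0.691 (0.617 to 0.777). The share of neutrophil-like cells with a UMI of the 4 genes was 14.4% and 17.4% (10.8% and 13.6% after thinning), under the 23.4% and 27.2% of human barcodes. Median depths were 2036 and 1962 UMIs per neutrophil-like cell with fewer than 10 class II UMIs, and 223 and 250 mouse UMIs per human barcode. Over the class as a whole these values were at or below the level of barcodes that cannot express the genes, and no expression was read from them.

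H2-Ab1 and H2-Eb1 in 1 neutrophil-like state lay above the lower of these background levels. Cells led by Nceh1, Plcxd2, Ccdc126 and Itpr2 (1199 young and 1196 aged) held 0.148 and 0.166 H2-Ab1 UMIs per cell. That was under the 0.207 and 0.248 of all human barcodes but above the 0.0743 and 0.105 of those with the lowest mouse share, by 1.99 (1.52 to 2.62) and 1.59 (1.25 to 2.03) times. H2-Eb1, at 0.0901 and 0.111 UMIs per cell, was likewise under all human barcodes and 2.00 (1.41 to 2.86) and 2.23 (1.60 to 3.15) times those with the lowest mouse share. H2-Aa was 1.22 (0.874 to 1.71) and 0.873 (0.620 to 1.23) times the latter, and Cd74 0.483 and 0.578 times. H2-Ab1 made up 40.2% and 40.4% of their class II UMIs and H2-Eb1 25.8% over both pools, while Cd74 made up 14.9%. The ratio of H2-Ab1 to Cd74 UMIs was 2.90 and 2.55 there, against 0.414 in phagocytes, 0.507 in human barcodes and 0.818 in those with the lowest mouse share.

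The Nceh1-led cluster was not found again in 3 of 5 other clusterings. Most of its cells with H2-Ab1 had it without the other chains or Cd74. Of the 129 young and 146 aged Nceh1-led cells with an H2-Ab1 UMI, 111 and 116 had no UMI of the other 3 summed genes. That share, 86.1% and 79.5%, lay within the range of 73.9% to 100% over neutrophil-like clusters. Macrophage markers summed to 598.3 and 689.4 CPM in Nceh1-led cells, against 536.0 and 542.7 CPM in Hspa1a-led, 520.5 and 567.6 in Sh2d3c-led and 368.3 and 326.7 in Retnlg-led neutrophil-like cells. Neutrophil markers summed to 95290 and 79890 CPM, close to the 101100 and 83270 CPM of Il23a-led cells and under the 272100 and 271000 CPM of Retnlg-led cells. Their part in the result was not tested. The Fam162a-led neutrophil-like cells also had more H2-Ab1 than Cd74, with a ratio of 1.45 over both pools, but it was 1.94 in the young and 0.962 in the aged pool, and their H2-Ab1 per cell was 1.195 and 0.650 times that of the human barcodes with the lowest mouse share. The Camp-led cluster held only 7 H2-Ab1 and 5 Cd74 UMIs in 84 cells. In the other neutrophil-like clusters the ratio over both pools was 0.547 to 0.942. Highest of these were Hspa1a-led cells, with 55 H2-Ab1 against 69 Cd74 UMIs in the young and 90 against 85 in the aged pool.

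**Figure D4:**
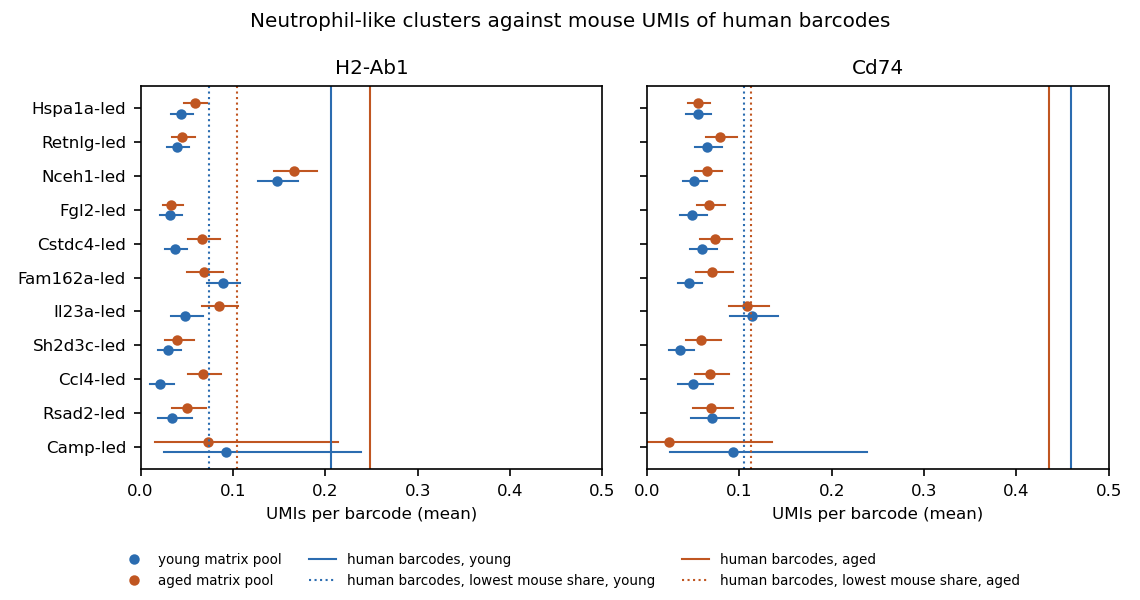
Mean UMIs of H2-Ab1 and Cd74 per cell in each neutrophil-like cluster (points with exact 95% Poisson intervals, young and aged pools), with vertical lines for the mouse UMIs per human barcode, solid for all and dotted for those with the lowest share of mouse UMIs. H2-Ab1 in Nceh1-led cells, 0.148 and 0.166, is to the right of the dotted lines and left of the solid lines. Cd74 in every cluster is far left of the solid lines. In Il23a-led cells Cd74, at 0.114 and 0.109, is beside its dotted lines (0.105 and 0.113).

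In several classes outside the phagocytes and neutrophil-like cells, few cells held most of the class II RNA of a pool. In endothelial-like cells, led by Gpihbp1 and Emcn, the 4 summed genes had 184.6 CPM in the young and 12.5 CPM in the aged pool. Of 354 young UMIs, 325 (91.8%) came from 1 of 124 cells, and without it the level was 15.3 CPM. That cell had 10 of 15 macrophage markers at a summed 16450 CPM, with Adgre1, Mertk, Arg1, Mmp12 and Gpnmb at 0, against 62.8 CPM in the other young endothelial-like cells. Per endothelial-like cell, 0.236 and 0.190 UMIs of the 4 summed genes then remained, 0.827 (0.545 to 1.21) and 0.563 (0.352 to 0.859) times the level of human barcodes with the lowest mouse share, so these genes were not detectable above it at this depth. H2-DMa had 3 UMIs in the other 123 young and 6 in the 121 aged cells, 2.16 (0.391 to 8.01) and 3.31 (1.05 to 9.03) times those barcodes, and 0.691 and 1.55 (0.549 to 3.56) times all human barcodes. The cluster led by Ccl21a and Lyve1, genes of lymphatic endothelium, had 95.9 and 16.6 CPM in 27 and 19 cells.

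Fibroblast-like cells had 62.7 and 141.4 CPM. In them 5 of 645 young and 18 of 1020 aged cells had 10 or more UMIs and held 67.2% and 80.5% of the total, and without these cells the level was 20.7 and 28.4 CPM. Those cells had 13 and 15 of the 15 macrophage markers at 2893 and 3858 CPM, against 223.3 and 230.6 CPM in the others, and median doublet scores of 0.209 and 0.21 against 0.17 and 0.158. In NK-like cells, with 509.3 and 467.9 CPM, 4 of 143 and 8 of 248 cells held 83.2% and 85.8%, leaving 88.5 and 70.8 CPM. Their macrophage markers stood at 351.4 and 3303 CPM against 246.1 and 100 CPM in the others, and 4 and 12 of the 15 were detected. In luminal epithelium-like cells 1 of 101 young and 2 of 61 aged cells held 23.6% and 84.6%, and the level went from 27.1 and 203.4 to 21.0 and 32.6 CPM without them. The young cell had 2 of 15 macrophage markers at 136.7 CPM, under the 201.7 CPM of the others, and the aged cells 7 of 15 at 2079 against 171.3 CPM, with C1qa, C1qb, C1qc and Ms4a7 at 0 in both pools. Without the cells of 10 or more UMIs, H2-DMa per NK-like cell was 6.73 (4.33 to 10.3) and 4.17 (2.64 to 6.47) times that of all human barcodes. Per fibroblast-like cell it was 3.63 (2.62 to 5.03) and 4.15 (3.06 to 5.68) times. Fibroblast-like H2-Ab1 was 1.94 (1.66 to 2.27) and 1.94 (1.705 to 2.20) times. H2-Aa, H2-Eb1 and Cd74 were below all human barcodes in both classes. Mixed droplets were not tested as the source of the cells of 10 or more UMIs.

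The pools were compared gene by gene within each class, with a gene said to stand apart at 1.5-fold or more. A gene counted as measured when 1 pool reached 20 CPM and the pools together 100 UMIs. In macrophage-like cells (320 young, 366 aged) the 4 summed genes had 6107 and 8535 CPM, 1.40-fold higher (1.38 to 1.42) in the aged pool. H2-Eb1 had 830.7 and 1265 CPM, 1.52-fold higher (1.46 to 1.59), and was the 1 of 7 measured members that stood apart, where 1.21% of all 5558 measured genes stood apart as higher. H2-Aa was 1.45-fold, H2-Ab1 1.40-fold, Cd74 1.34-fold, H2-DMa 1.19-fold, H2-DMb1 1.25-fold and H2-DMb2 1.48-fold higher. Ciita, at 12.6 and 14.9 CPM, was too low to be measured. The median log2 ratio of the measured members was 0.48, beside 0.02 over all genes.

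In monocyte-like cells (406 and 505) the 4 summed genes had 5730 and 8579 CPM, 1.497-fold higher (1.47 to 1.53) in the aged pool and just under the 1.5-fold line. Of 8 measured members 3 stood apart as higher, where 1.37% of 5197 genes did. These were H2-Ab1, from 1037 to 1678 CPM (1.62-fold, 1.55 to 1.69), H2-Eb1, from 698.7 to 1145 CPM (1.64-fold, 1.56 to 1.73), and Ciita, from 17.9 to 30.04 CPM (1.68-fold, 1.21 to 2.36). H2-DMa, at 336.3 and 367.3 CPM, and H2-DMb1, at 111.2 and 127.8 CPM, were 1.09-fold and 1.149-fold higher. The median log2 ratio of the members was 0.54, beside 0.02 over all genes.

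Much of both differences went with the mix of clusters. Among macrophage-like cells the Ccl8-led cluster, high in class II, was 24.4% of the young and 35.0% of the aged cells, and the Gpnmb-led cluster, low in class II, 33.1% and 22.7%. With the cluster mix held at that of the young pool, the ratio of the 4 summed genes was 1.05, and that of H2-Eb1 1.12. Among monocyte-like cells the Spon1-led cluster was 20.7% and 30.9% and the Hp-led cluster 41.4% and 35.1%. With the mix held, the ratio there was 1.18, with H2-Ab1 and H2-Eb1 at 1.27 and Ciita at 1.35. In these classes no ratio of a member stood apart once the mix was held. Which cells were captured and which cells were in the tissue could not be told apart.

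Within clusters, ratios of the 4 summed genes ran both ways. Spon1-led monocyte-like cells were 1.39-fold higher in the aged pool, and H2-Eb1 stood apart there at 1.62-fold, 1 of 7 members where 1.98% of genes did. The Inhba-led cluster was 1.24-fold higher, with H2-DMa (1.54-fold) and H2-DMb1 (1.78-fold) standing apart, 2 of 6 members against 2.1% of genes. Adgre4-, Fcrls-, Slpi- and Ccl8-led clusters had ratios of 1.35, 1.17, 1.09 and 1.07, and Il1r2-, G0s2- and Hp-led clusters 0.989, 0.979 and 0.974. The Rsad2-led monocyte-like cells had 13650 CPM in both pools.

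Other clusters were lower in the aged pool. Gpnmb-led macrophage-like cells had a ratio of 0.737, with H2-Eb1 at 0.536 the 1 of 5 measured members that stood apart as lower, where 1.95% of genes did. A single Gpnmb-led cell held 21.4% of the young and another 13.8% of the aged UMIs of the 4 summed genes. After thinning, 55.8% of young and 58.5% of aged Gpnmb-led cells had none of these UMIs, and 6.73% and 7.32% had 20 or more. Cycling macrophage-like cells had 0.736, with Cd74 at 0.660, 1 of 6 members against 3.28% of genes. Neutrophil markers summed to 16980 CPM in young and 2207 CPM in aged cycling macrophage-like cells, and to 4371 and 1368 CPM in Gpnmb-led cells, and their part in these ratios was not tested. The Ctsk-led cluster had 0.650, with H2-Aa at 0.374, H2-Ab1 at 0.459 and H2-Eb1 at 0.157, 3 of 4 members against 1.03% of genes. There 1 young cell decided the result, since the ratio of the 4 summed genes was 1.10 without the cell that held the most.

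In cDC2-like cells the 4 summed genes did not differ between pools beyond counting error, with a ratio of 1.001 (0.979 to 1.024). Ciita was lower in the aged pool, 95.98 against 152.5 CPM, a ratio of 0.629 (0.425 to 0.924), the 1 of 8 measured members that stood apart where 3.11% of 1350 genes stood apart as lower. The share of cells with a Ciita UMI did not fall, at 44.2% in the young and 49.1% in the aged pool. After thinning it was 25.5% and 18.5%. H2-DMb1 had a ratio of 0.709. In neutrophil-like cells the 4 summed genes had a ratio of 1.32 (1.24 to 1.40), and none of 3 measured members stood apart, where 0.583% of genes did either way. The human barcodes of the 2 pools moved the same way, from 1412 to 1561 CPM.

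**Figure D5:**
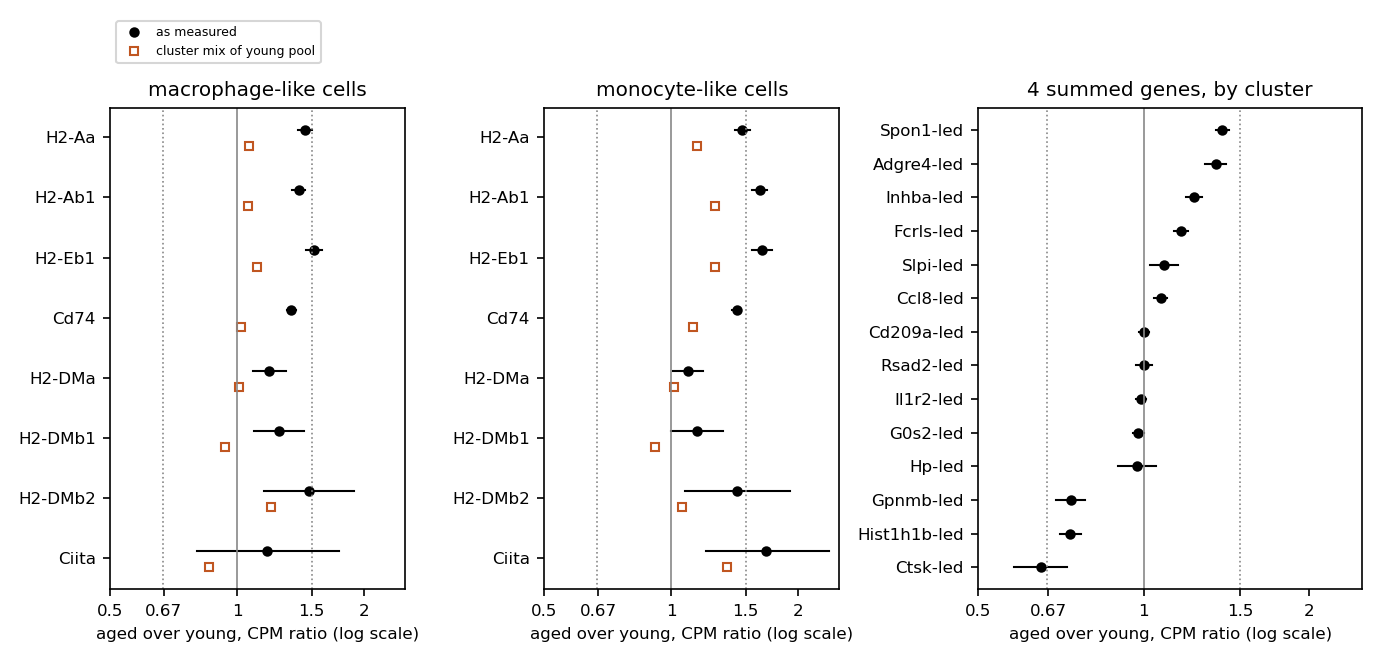
Ratio of the aged to the young pool (log axis) for the 8 genes in macrophage-like and monocyte-like cells, as measured (filled, with exact 95% intervals) and with the cluster mix of the young pool (open squares), and for the 4 summed genes in each phagocyte cluster. Dotted lines mark 1.5-fold either way; H2-Eb1 passes it in both classes as measured and in neither with the mix held, and Ciita in macrophage-like cells was below the measured level.

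Other genes of class II presentation were read from lists. H2-Oa, a chain of H2-O, which restrains H2-M, had 45.8 and 55.1 CPM in cDC2-like cells and 62.9 and 40.6 CPM in plasmacytoid dendritic-like cells, but 0 CPM in both pools of Spon1-led monocyte-like and Gpnmb-led macrophage-like cells and at most 0.0437 CPM in neutrophil-like cells. Of the factors that bind class II promoters, Rfx5 had 13.1 and 6.13 CPM in cDC2-like against 1.12 and 1.27 CPM in neutrophil-like cells, and Rfxank 4.36 and 8.17 against 1.42 and 1.18 CPM. In cDC2-like cells 3 UMIs equal 6.54 and 6.13 CPM, so both genes rest on few UMIs there. Over both pools the ratios were 7.97 (3.46 to 16.3) for Rfx5 and 4.87 (1.72 to 11.2) for Rfxank. Nfya had 34.9 and 26.6 against 29.2 and 28.4 CPM, and Nfyb 23.97 and 40.8 against 26.5 and 27.3 CPM. Ciita, at 152.5 and 95.98 CPM in cDC2-like cells and 3 UMIs in all neutrophil-like cells, thus differed between these cell types far more than the 4 factors.

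Antigen processing genes were divided. Ifi30, which encodes an endosomal thiol reductase, had 1270 and 1213 CPM in cDC2-like and 8.06 and 10.4 CPM in neutrophil-like cells, but it was as high in the Ctsk-led cluster (1249 and 1304 CPM) and at 840.1 and 787.7 CPM in Hp-led monocyte-like cells, both low in class II. The protease inhibitor gene Cst3 had 9078 and 10190 CPM in cDC2-like against 335.5 and 377.8 CPM in neutrophil-like cells. The cathepsin genes Ctsd and Ctsl went the other way, with 119.8 and 108.2 against 1213 and 1175 CPM and 76.3 and 51.1 against 320.9 and 285.9 CPM. Both were far higher in Gpnmb-led macrophage-like cells, Ctsl at 17210 and 15790 CPM and Ctsd at 7547 and 9020 CPM.

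Among genes of surface class II turnover and costimulation, Cd83, whose product shields class II from the ligase MARCH1, had 329.0 and 306.3 CPM in cDC2-like and 3.13 and 3.58 CPM in neutrophil-like cells. March1 itself had 54.5 and 71.5 against 10.6 and 12.2 CPM, and March8 2.18 and 0 against 10.9 and 11.8 CPM. The March8 ratio over both pools was 0.0931 with a wide interval, 0.00235 to 0.521. The costimulatory genes Cd86 and Cd40 had 237.5 and 208.3 against 16.3 and 17.7 CPM, and 19.6 and 18.4 against 0.172 and 0.219 CPM. The Cd40 ratio over both pools was 97.4 (41.6 to 246). Genes for the inhibitory ligands of PD-1 were higher in neutrophil-like cells. Cd274 had 331.9 and 304.0 against 58.8 and 53.1 CPM, and Pdcd1lg2 26.8 and 26.2 against 0 and 10.2 CPM. For Pdcd1lg2, with few UMIs in cDC2-like cells, their level was 0.199 (0.06455 to 0.466) times that of neutrophil-like cells over both pools.

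Genes of the interferon-gamma route, an inducer of Ciita, differed less. Ifngr1 had 257.1 and 290.0 CPM in cDC2-like and 140.2 and 141.7 CPM in neutrophil-like cells, and Jak2 180.9 and 200.1 against 90.9 and 91.8 CPM. Jak1, at 156.9 and 155.2 against 314.3 and 328.3 CPM, and Irf1, at 23.97 and 38.8 against 70.9 and 74.2 CPM, were higher in neutrophil-like cells. Ifng itself, named after its values were seen, had 63.5 (48.2 to 82.1) and 151.9 CPM (132.5 to 173.2) in NK-like cells and 0.164 and 0 CPM in phagocytes. Class I presentation differed unevenly, with H2-D1 at 1660 and 1523 against 1292 and 1276 CPM and B2m at 1194 and 1160 against 823.0 and 862.3 CPM, but Tap1 at 78.5 and 102.1 against 10.2 and 11.9 CPM and Psmb8 at 603.6 and 637.2 against 38.6 and 46.7 CPM.

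None of these lists' genes stood apart between pools in macrophage-, monocyte-, cDC2- or neutrophil-like classes. In macrophage-like cells that was 0 of 7 measured processing genes, 0 of 4 promoter factors, 0 of 2 turnover genes, 0 of 2 costimulation genes, 0 of 6 interferon-gamma route genes and 0 of 8 class I genes, where 2.43% of all genes stood apart either way. The shares of all genes were 2.35% in monocyte-, 4.81% in cDC2- and 0.583% in neutrophil-like cells. Median log2 ratios were 0.34 for the turnover genes and 0.15 for the class I genes, beside 0.48 for the 7 measured members. Within the Spon1-led monocyte-like cluster March1 was among the genes that stood apart as lower in the aged pool, where 2.12% of genes did.

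The 8 genes were close to the 4 summed genes in pattern, but some genes outside the set were as close. Over 58 sums of a cluster in a pool with at least 50 cells, Pearson's r of log2(CPM + 10) with the 4 summed genes was 0.996 for Cd74, 0.994 for H2-Ab1, 0.993 for H2-Aa and 0.990 for H2-Eb1, which are part of that sum. It was 0.965 for H2-DMa, 0.963 for H2-DMb1, 0.932 for H2-DMb2 and 0.910 for Ciita. The sums share 2 libraries and their depth, so these are descriptions. Outside the lists, Cysltr1 (0.957), Adgrg5 (0.940), Aif1 (0.935), Ly86 (0.928), Il21r (0.922), Arl5c (0.911) and Ms4a6c (0.911) were among the closest. Each of these was above Ciita, and Cysltr1, Adgrg5 and Aif1 were also above H2-DMb2. Most of the likeness of these other genes came from the contrast of phagocytes with other cells. Over the 24 sums of phagocyte clusters alone, Cysltr1 fell to 0.812 and Ms4a6c to 0.360. Pmaip1 (0.839), Dapp1 (0.823) and Ggt5 (0.823) were closer than Cysltr1 there. H2-DMb1 kept 0.958, H2-DMb2 0.922, Ciita 0.901 and H2-DMa 0.860. H2-DMa thus had the loosest tie of the 8 genes among phagocytes, the same gene whose share was high in Hp-led monocyte-like cells.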

How the data were processed

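The deposited matrices hold UMI counts per gene and barcode, made by the authors with Cell Ranger 6.0.0 on joint GRCh38 and mm10 references, per the submitters' processing notes. Antibody counts are deposited in the same matrices. Of them only the I-A/I-E tag, the totals of the 38 protein tags and the summed hashing counts were read. Filters beyond Cell Ranger's cell calling are not given in the sources used here. Of 16965 young and 17757 aged barcodes, 13102 and 14238 were mouse (at least 90% of gene UMIs on mouse genes), 2494 and 2436 human and 1369 and 1083 mixed. Cells needed 500 UMIs, 300 genes and at most 20% mitochondrial UMIs. Scrublet scores over 0.25 (expected rate 0.1) removed 1045 and 1166 mouse cells, leaving 2125 and 2001 human cells beside the mouse ones. A human cell held a mean of 690.4 and 658.0 mouse UMIs.

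The mouse cells of the pools entered 1 clustering with scanpy 1.11.5 and leidenalg 0.10.2 (2000 variable genes, 30 components, 15 neighbours, resolution 1, seed 1), leaving out the 8 genes and the other genes of the 43-gene lists, and phagocytes were clustered again by themselves. Of 24 marker sets, a name needed at least 3 markers, each in 20% of cells, at 20 CPM and at 2 times the median cluster. UMIs were summed per cluster and pool, as CPM with exact Poisson intervals, and ratios have exact conditional intervals (scipy 1.17.1). Comparisons needed 30 cells in each pool. With 1 library per group no p-value was computed. Up to 2 genes at each end of a list, the 5 leading genes per cluster and the 8 genes most alike in pattern followed a written rule, and some of the genes it picks are not reported here. Members and lists were chosen with earlier results of these data known. On simulated counts, 2-fold changes in 200 genes were called for 99.0% of them in macrophage-like, 99.0% in monocyte-like, 96.5% in cDC2-like and 100% in neutrophil-like cells. These counts were Poisson draws with no spread between cells or libraries, so they show recovery under counting error only. Alternatives, including TMM scaling (edgeR 4.0.16) and median-of-ratios scaling (DESeq2 1.42.0), are in the closing section. Mouse reference sequences were not used here.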

Additional observations from a re-analysis of the deposited data

Results flagged for a closer look

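These results are ratios of the aged to the young pool that ran opposite ways in different cells, and with 1 library a group the difference between the cells was not tested. H2-Aa had 2.53 in fibroblast-like cells, 0.374 in the Ctsk-led cluster and 0.0667 in endothelial-like cells. For H2-Ab1 the ratio was 1.98 in fibroblast-like cells, 1.62 in monocyte-like cells and 0.459 in the Ctsk-led cluster. H2-Eb1 stood at 1.62 in Spon1-led monocyte-like cells, 1.52 in macrophage-like and 1.64 in monocyte-like cells, against 0.536 in Gpnmb-led macrophage-like cells and 0.157 in the Ctsk-led cluster. For Cd74 the values were 2.30 in fibroblast-like and 13.5 in luminal epithelium-like cells, against 0.660 in cycling macrophage-like and 0.0472 in endothelial-like cells. Ciita had 1.68 in monocyte-like and 0.629 in cDC2-like cells. The endothelial- and fibroblast-like values go with the few cells of 10 or more class II UMIs, and the Ctsk-led values with 1 cell. The luminal epithelium-like difference was smaller without such cells but remained. There the 4 summed genes had 21.0 CPM in the young and 32.6 CPM in the aged pool. Cd74 had 0.13 and 0.322 UMIs per cell, from only 13 and 19 UMIs.

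The antibody library held a tag for I-A/I-E, the class II proteins, which no comparison used. It had 15 counts over all young and 22 over all aged mouse cells, above the 3 counts that a zero allows. Phagocytes held 3 and 6 of them and neutrophil-like cells 7 and 11, and the 38 protein tags had medians of 3 and 7 counts, so protein was not read.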

How the results depend on the processing

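No paired analysis was made, because each group had 1 library and the labels do not tie its hashing tags to animals. The young replicate and the aged replicate could not be left out in turn for the same reason. The aged over young ratio of the 4 summed genes in macrophage-like cells was 1.21 at 98% species purity, 1.35 with a minimum of 1000 UMIs, 1.36 without doublet removal, 1.37 with all genes in clustering, 1.26 at resolution 0.5, 1.35 with every cell weighted equally, 1.37 with TMM scaling and 1.35 without the cell with the most UMIs. It was 1.05 with the cluster mix held, an alternative chosen after seeing the data, as was leaving out cells of 10 or more class II UMIs. In monocyte-like cells it was 1.503 (98% purity) and 1.51 (1000 UMIs), there past 1.5-fold, and 1.41 (all genes), 1.31 (resolution 0.5), 1.39 (equal weights) and 1.18 (mix held). The cDC2-like level went from 33050 CPM to 27230 (1000 UMIs), 27760 (all genes) and 31440 (equal weights), and its pool ratio to 1.06 (98% purity), 0.892 (1000 UMIs), 0.888 (all genes), 1.03 (TMM), 1.07 (median of ratios) and 1.03 (without the top cell). In neutrophil-like cells the ratio was 1.16 (98% purity), 1.22 (TMM) and 1.23 (median of ratios), the scaling shift there being -0.11 on the log2 scale for TMM. Members past 1.5-fold in macrophage-, monocyte- and cDC2-like cells numbered 5, but 3 without doublet removal, with all genes, with equal weights and without the top cell, and 0 at resolution 0.5, where no cDC2-like class was found. Class II UMIs per neutrophil-like cell against per human barcode rose to 0.827 and 0.723 at 98% purity, and to 0.691 in the aged pool against the barcodes with the lowest mouse share. Against the latter the Nceh1-led cells turned from below to above, at 1.27 and 1.196.

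Turned in direction were fibroblast-like Cd74 (0.344) and the 4 summed genes there (0.453) at 1000 UMIs, and in the Ctsk-led cluster H2-Aa (1.72), H2-Ab1 (1.76), H2-Eb1 (1.83) and the 4 summed genes (1.52) at resolution 0.5, the last also at 1000 UMIs (1.13) and without the top cell (1.10). Apart from the top cell, the cause was not tested. Without the barcodes found in both pools, also chosen after seeing the data, none of these class results moved past its counting error. Of 75 values of the main results, 40 were little moved, 30 moved, 3 were no longer and 2 were newly past 1.5-fold, and 0 turned. Of 716 other values, 464 were little moved, 189 moved, 47 were no longer and 6 were newly past 1.5-fold, and 10 turned. Clusters depended on settings: of 17 sought, 11 were found again at 98% purity, 12 with 1000 UMIs, 12 without doublet removal, 12 with all genes and 6 at resolution 0.5, at a Jaccard index of at least 0.5. Ccl8-, Fcrls- and Retnla-led cells were not found again in 4 of these 5, and Nceh1-, Spon1-, Slpi- and Adgre4-led cells in 3.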

Other observations

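Below the cells with 10 or more UMIs of a gene, fibroblast-like cells held more H2-Ab1 than Cd74. Over 1665 cells of both pools these were 761 UMIs of H2-Ab1 in 398 cells and 222 of Cd74 in 186 cells. In NK-like cells they were 120 and 53 UMIs. In phagocytes Cd74 UMIs outnumbered those of H2-Ab1, and so they did in human barcodes.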
